A study of Homo sapiens with 5 samples.

Results

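PFKFB3 was examined as a stretch of chromosome 10 in which the transcription factor SMAD2 had many neighbouring binding summits. A summit is the single base at which the enrichment of a peak is highest. The window ran from 6150 to 6350 kb of chromosome 10 on hg19. It held PFKFB3, whose span was taken as 6186.8 to 6277.5 kb on the plus strand, with 36.8 kb before the gene and 72.5 kb after it. The locus was chosen by its counts of summits in the same 4 libraries, and a wide gap between the treatments was already known when it was chosen. The counts and their difference between treatments are therefore given as a description, with no test. The window held 217 of the 233945 summits listed on chromosomes 1 to 22 and X. These 217 summits formed 118 of 115321 regions, a region being a chain of summits of any library at most 200 bp apart.

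The cells were T47D, a human breast cancer line of the luminal type that expresses the estrogen receptor. Chromatin was precipitated with an antibody against SMAD2. Activin A was given at 50 ng/ml for 1.5 h in all 4 libraries. In 2 libraries it was given alone, and in the other 2 the cells had also received palbociclib at 1 µM for 24 h, and these are called the palbociclib libraries. An input library, whose title names T47D and no treatment, was the control for peak calling and has no list of its own here. No SMAD2 library without activin was analysed, so nothing here separates the effect of activin from its absence.

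PFKFB3 encodes an enzyme that makes fructose 2,6-bisphosphate, a strong activator of phosphofructokinase-1 and so of glycolysis. The gene is a known target of hypoxia signalling, and its protein is marked for destruction by the ubiquitin ligase APC/C with its activator CDH1, which ties its level to the cell cycle. SMAD2 is phosphorylated by receptors for activin and TGF-β, joins SMAD4 and enters the nucleus. Its common isoform does not itself touch DNA and is brought there by SMAD4 and other DNA-binding factors. Palbociclib inhibits CDK4 and CDK6, kinases that drive cells from G1 into S phase. Transcripts of PFKFB3 were not measured in these libraries.

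The RefSeq promoters used here hold 2 start sites for PFKFB3 on GRCh38.p14. Their promoter windows, 250 bases before to 50 after the start, are shown because a summit lay at the start of the gene in every library, and because the strongest summit of the locus lay at a distance from it close to that between the starts. The starts are 58.0 kb apart on GRCh38.p14. The strongest region lay 58.1 kb past the gene start on hg19. These are lengths within each build, and no position was carried from one build to the other, so the place of the downstream start on hg19 was not determined. Both sequences are on the plus strand, at chr10:6144671-6144970 for the upstream start and chr10:6202682-6202981 for the downstream start. Capitals mark GTCT or AGAC, the letters that the SMAD4 DNA-binding domain recognises.
PFKFB3 upstream start: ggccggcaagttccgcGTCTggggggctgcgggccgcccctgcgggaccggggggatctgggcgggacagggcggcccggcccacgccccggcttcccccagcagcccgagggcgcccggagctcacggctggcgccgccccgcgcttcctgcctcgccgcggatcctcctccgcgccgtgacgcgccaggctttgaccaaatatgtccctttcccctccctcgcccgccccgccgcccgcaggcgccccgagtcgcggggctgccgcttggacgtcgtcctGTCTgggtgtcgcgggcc
PFKFB3 downstream start: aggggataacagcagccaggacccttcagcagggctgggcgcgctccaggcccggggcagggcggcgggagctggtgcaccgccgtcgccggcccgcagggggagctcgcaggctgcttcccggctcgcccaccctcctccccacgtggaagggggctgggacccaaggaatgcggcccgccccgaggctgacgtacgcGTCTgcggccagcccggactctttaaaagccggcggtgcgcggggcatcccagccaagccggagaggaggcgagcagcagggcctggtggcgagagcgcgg

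The upstream promoter had 2 matches to GTCT or AGAC and the downstream promoter had 1. Of 35116 RefSeq promoters of the same length, 84.0% had at least 1, so a match is common. The upstream promoter held 8 matches to GGCGC or GCGCC, letters of a GC-rich SMAD motif, some of which overlap each other. At least as many were found in 2.44% of promoters. The downstream promoter held 1 such match, and 48.6% of promoters had at least 1. These promoters are rich in G and C, at 78.3% and 74.3% against a median of 58.7% over all promoters. Neither window held the AP-1 letters TGAGTCA on either strand, found in 4.95% of promoters. The GATA letters AGATAA, present in 10.3% of promoters, were in neither window. The same held for a forkhead motif, TGTTTAC with A or G at its next-to-last letter, present in 7.17%. Motifs were searched on both strands, and nothing follows from a match or its lack about binding.

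The locus was among the densest in SMAD2 summits in every library. Activin replicates 1 and 2 listed 45 and 46 summits in the window, and palbociclib replicates 1 and 2 listed 63 and 63. The groups did not overlap, and the mean after palbociclib was 1.38-fold that with activin alone. Of 11566 windows of 200 kb with a summit in any library, this one ranked 16th by total. Per library it ranked 23 and 31 with activin and 7 and 10 with palbociclib. It held 10.1 and 9.81 times the mean window of the activin lists and 11.6 and 11.2 times that of the palbociclib lists.

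Read against the rest of the genome, a higher count after palbociclib was common. Both palbociclib counts exceeded both activin counts in 22.6% of all 200-kb windows, and in 51.2% of the 518 windows with a mean of at least 20 summits. In these dense windows the median ratio was 1.18, with a 10th percentile of 0.986 and a 90th of 1.50, and 96 of them had a ratio above that of PFKFB3. The palbociclib lists were themselves 1.21-fold as long. Per 10000 listed summits, the window held 8.73 and 8.48 with activin and 10.0 and 9.66 with palbociclib, which is a ratio of 1.14. With each list trimmed to its highest 51535 summits, the length of the shortest, the counts were 45 and 46 against 49 and 50.

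**Figure D1:**
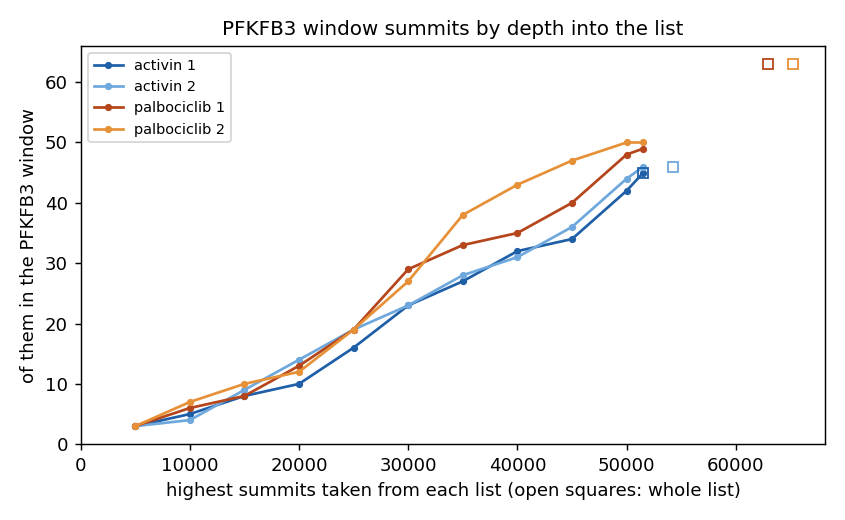
Number of summits of the PFKFB3 window (vertical axis) among the highest-scoring summits of each list (horizontal axis, number of summits taken), 1 line per library. Open squares give the whole lists. The 4 lines lie between 10 and 14 at 20000 summits, and the palbociclib lists reach 63 only over their full length.

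By depth into the list, the groups parted at some depths and overlapped at others. Each list had 3 summits of the window among its highest 5000. Among the highest 10000 there were 5 and 4 with activin and 6 and 7 with palbociclib, apart by 1 summit at the least and with a ratio of means of 1.44. Among the highest 20000 there were 10 and 14 with activin and 13 and 12 with palbociclib, so the groups overlapped. Among the highest 30000 there were 23 and 23 against 29 and 27, and the groups were apart. Read depth is unknown for these lists, and list length moves with it, so the part of depth in these counts was not tested.

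A single region inside the gene dominated the locus. Both activin libraries had its summit at 6244928. Palbociclib replicate 1 had it at 6244927 and replicate 2 at 6244921, so that 8 bp covered all of them. Each summit carries a score, read as the −log10 of its q-value against the input, which is comparable within a list. The scores here were 390 and 368 with activin, and 797 and 686 with palbociclib. In their own lists these summits ranked 59 and 86, and 30 and 28. The runner-up of the window scored 102 and 75.5 with activin alone, and 140 and 101 after palbociclib. It was the region starting at 6340059 in 3 libraries and that at 6205892 in palbociclib replicate 2. The leading summit scored 3.85 and 4.87 times the runner-up with activin, and 5.71 and 6.76 times with palbociclib. It lay 58.1 kb past the gene start, at 64.1% of the length of the gene. Lists of different length and depth give different scores and ranks, so their higher values after palbociclib are not read as more binding.

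At the start of the gene a weaker summit was listed in each library. With distances from the gene start negative before it, the summit lay at −68 bp in activin replicate 1, with a score of 31.2. Activin replicate 2 had a pair of summits here, at −238 and 116 bp, with scores of 9.19 and 8.06. In palbociclib replicates 1 and 2 it lay at −228 and −208 bp, with scores of 32.4 and 46.9. The gene start is known here to the nearest 0.1 kb. By score the best of them ranked 10808 and 25061 with activin, and 13690 and 9990 after palbociclib. In every library the gene-start summit ranked far behind the internal one, 58.2 to 58.4 kb away.

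**Figure D2:**
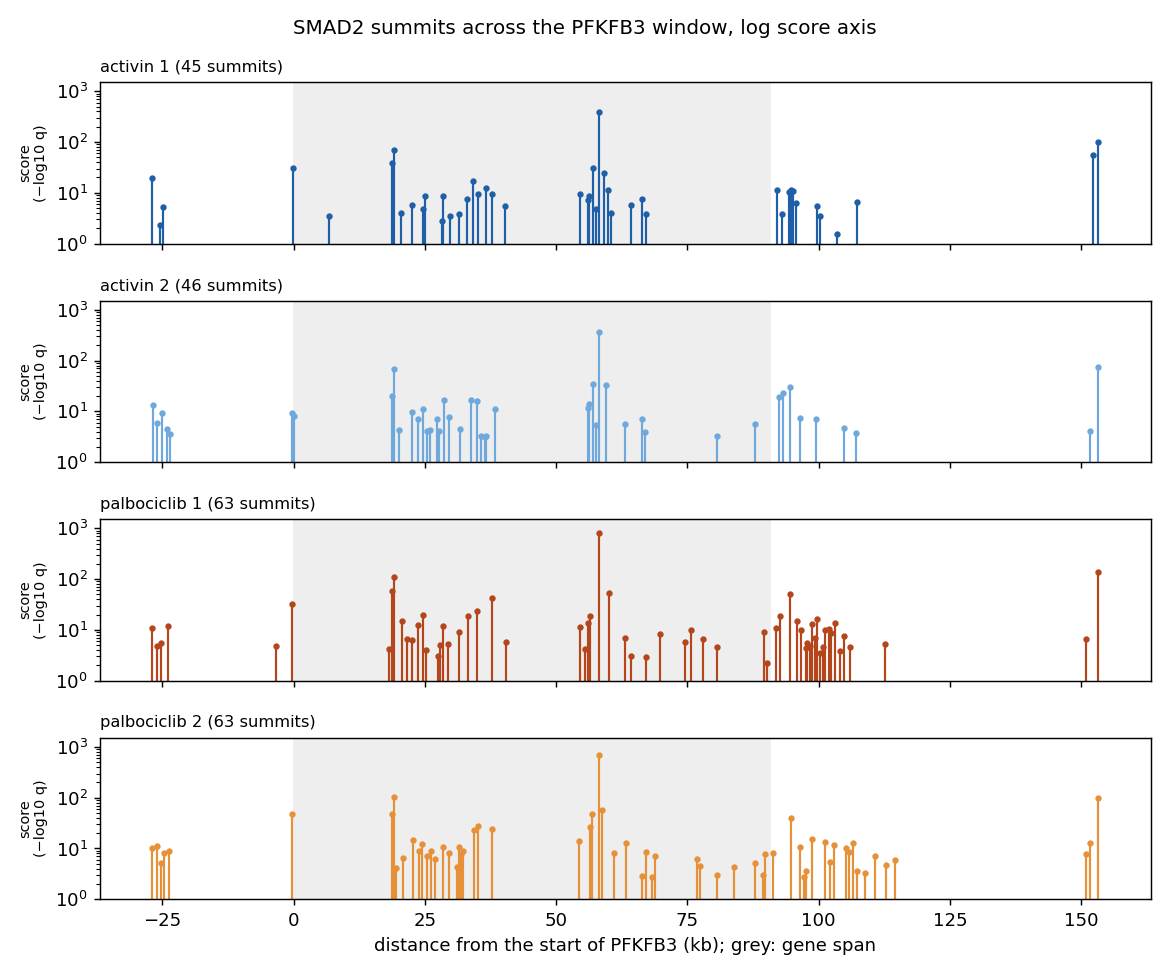
Each summit of the window as a vertical line at its distance from the start of PFKFB3 in kb, with its score (−log10 q, log axis) as height, 1 panel per library. Grey marks the gene span. The tallest line stands at 58.1 kb in all panels, and the stretch from 68.1 to 114.5 kb holds 10 and 9 lines with activin and 28 and 26 with palbociclib.

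Summits fell into separate blocks along the window. Chaining the pooled summits at gaps of up to 5 kb, a distance set after the positions were seen, gave 6 blocks, of which 1 was a lone summit of activin replicate 1 at 6193605. The first block lay from 6159842 to 6163200, over 23 kb before the gene, with 3 and 5 summits with activin alone and 4 and 5 after palbociclib. The block at the gene start held 1 and 2 summits, and then 2 and 1. A block of 22.2 kb within the gene, from 6205065 to 6227256, held 16 and 19 summits with activin and 18 and 19 with palbociclib. The longest block, of 60.1 kb, ran from 6241215 past the strongest region and the gene end to 6301316. It held 22 and 18 summits with activin against 37 and 35 with palbociclib. Its extent depends on palbociclib summits. No activin summit lay between 6253835 and 6267477, over 5 kb apart, or within the block after 6294082. The bounds of this block are thus not independent of its counts. The last block, of 2.35 kb, ended at 6340082 and held 2 and 2 against 2 and 3. Only in the longest block did the groups not overlap, among the 5 blocks with more than 1 summit. Blocks were not made over the rest of the genome, so no share of such blocks stands beside this count. It is given as a description only.

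Within the longest block, over whole lists, the extra summits lay past the strongest region. The window was divided 10 kb past it, at a point set after the positions were seen. From the window start to that point, the activin libraries held 33 and 35 summits and the palbociclib libraries 33 and 34. From there to the end of the block, 68.1 to 114.5 kb past the gene start, they held 10 and 9 against 28 and 26. The means were 9.50 ± 0.71 and 27.0 ± 1.4 (SD, n = 2), a ratio of 2.84. This stretch covers the 3′ end of the gene span and the first part of its downstream flank. Between the dividing point and the gene end alone, 0 and 2 summits were listed with activin and 7 and 9 with palbociclib. The stretch ends at a summit that only palbociclib replicate 2 listed, so its bounds are not independent of its counts. No share of such stretches over the genome was computed, and the counts only describe it.

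The extra summits were of middle and low rank. At equal list lengths the stretch held 10 and 9 summits against 20 and 16, a ratio of 1.89. The part before it held 33 and 35 against 27 and 31, apart the other way with a ratio of 0.853. With a score of at least 5 the stretch held 7 and 6 against 20 and 16, and the part before it held 23 and 24 against 25 and 31. At that score the groups were apart in both parts with palbociclib higher, at ratios of 2.77 and 1.19. No share of such separations over the genome was computed. Among the highest 20000 summits of each list the stretch held 0 and 3 against 2 and 1, and no difference was left. The median score of its summits was 6.41 and 6.94 with activin and 7.97 and 6.17 with palbociclib. Above the median of their own list stood 4 of 10 and 3 of 9 activin summits, and 11 of 28 and 8 of 26 palbociclib summits.

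**Figure D3:**
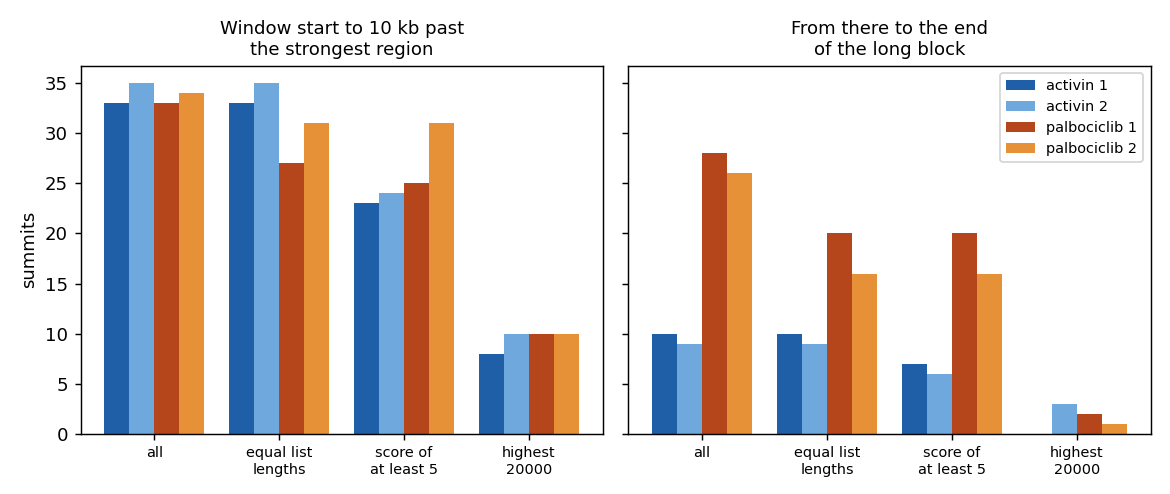
Summits (vertical axis, number) before and after a point 10 kb past the strongest region, in the 4 libraries, over whole lists and 3 restricted lists. After the point the palbociclib bars exceed the activin bars at 28 and 26 against 10 and 9, and at equal list lengths at 20 and 16 against 10 and 9, but not among the highest 20000 summits.

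The same summits were also counted in bins of 10 kb, a size set after the positions were seen. Of the 20 bins, 16 held a summit, and in 5 of them both palbociclib counts lay above both activin counts. The share of such bins was 10.8% over all 47013 bins with a summit, and 18.8% over the 9327 bins with a mean of at least 2 summits, a class that held 10 bins of this window and all 5 of these. One of the 5 lay 13.2 to 23.2 kb past the gene start, with 4 and 4 against 6 and 5. The other 4 were neighbours, from 73.2 to 113.2 kb. The fullest, from 93.2 to 103.2 kb, held 6 and 3 summits with activin and 15 and 8 with palbociclib. A single bin, 33.2 to 43.2 kb past the start, went the other way with 5 and 6 against 4 and 3. That direction was found in 2.67% of all bins and in 5.11% of those with a mean of at least 2 summits.

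**Figure D4:**
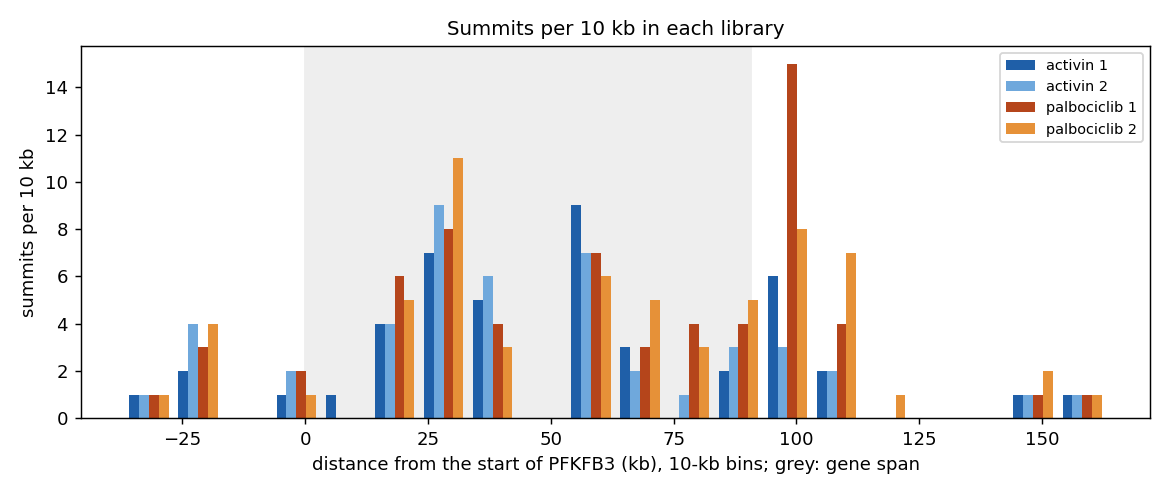
Summits per 10-kb bin (vertical axis, number) by distance from the start of PFKFB3 in kb, with 1 bar for each library. Grey marks the gene span. The 4 neighbouring bins between 73.2 and 113.2 kb have higher palbociclib than activin bars, with 15 and 8 against 6 and 3 in the fullest.

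By the zones of the gene, the downstream flank differed most. Before the gene there were 4 and 6 summits with activin and 6 and 6 with palbociclib. Within its span there were 29 and 31 against 34 and 37, or 3.20 and 3.42 against 3.75 and 4.08 per 10 kb. Per 10000 listed summits the log2 ratio of palbociclib to activin within the span was −0.034. That is close in size to the replicate SD of the window value (0.033), so no direction is read from it. After the gene there were 12 and 9 against 23 and 20, or 1.66 and 1.24 against 3.17 and 2.76 per 10 kb. No share of such separations over the spans and flanks of other genes was computed, so these counts are a description only. The share of window summits inside the gene has as its denominator the count by which the locus was chosen. The share is therefore not independent of that choice. It was 64.4% (exact 95% interval 48.8 to 78.1) and 67.4% (52.0 to 80.5) with activin. With palbociclib it was 54.0% (40.9 to 66.6) and 58.7% (45.6 to 71.0). The intervals cover counting error only. The means were 65.9% ± 2.1 and 56.3% ± 3.4 (SD, n = 2), a difference of −9.57 percentage points that exceeded the SD of either group. Among the highest 10000 summits of each list, where the window holds 4 to 7, the difference had the other sign, at 1.55 points. An exact two-sided permutation test over libraries gave p = 0.333. With 2 libraries a group no smaller p is possible, so the test could not pass 0.05. Whether the replicates are separate cultures is not stated in the labels, and their spread may be technical. Current RefSeq models of PFKFB3, predicted ones included, cover 181.7 kb on GRCh38.p14, against the 90.7 kb taken as the gene here, so summits counted as downstream may lie within longer predicted transcripts.

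Regions with a summit in all 4 libraries numbered 14 of 118, or 11.9%, beside 20.4% of all regions. After the strongest region, the best-ranked was at 6340059 to 6340082, 153.3 kb past the gene start, where it ranked 2373 and 4237 with activin, and 3022 and 4591 after palbociclib. Its summits lay within 24 bp of each other. The third was at 6205892 to 6205963, in the gene 19.1 kb past its start, with ranks of 4762 and 4980, and 4324 and 4447. It was adjoined by another shared region at 6205466 to 6205542, with scores of 39.1 and 20.3, and 59.0 and 47.6. In these 4 regions the summits of the libraries spanned at most 77 bp.

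The other shared regions were weaker. One lay past the gene end at 6281366 to 6281486, inside the stretch with more summits after palbociclib. It scored 11.2 and 30.3 with activin and 50.8 and 40.0 with palbociclib, and its best rank in a list was 9892. Next came the region at the gene start, and then those at 6221697, 6243095, 6215237, 6159842, 6211301 and 6161432, with worst ranks between 25669 and 50849. The region at 6161432 scored 2.32 in activin replicate 1. The median distance covered by a shared region was 175 bp at this locus and 77 bp over the genome. Chaining joins nearby summits where they are dense, which widens such spans.

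Regions with a summit in each palbociclib library but none with activin alone numbered 9, or 7.63% of the 118, beside 5.29% over all regions. The reverse class held 3, or 2.54%, beside 2.22%. Of the 9, 7 lay in the stretch from 68.1 to 114.5 kb past the gene start, which held 49 regions in all. The best-ranked was at 6285483 to 6285601, with scores of 13.0 and 15.1 and the nearest activin summit 779 bp away. The region at 6289735 to 6289844 scored 13.8 and 11.6, with activin 381 bp away. That at 6288069 to 6288080 scored 10.2 and 13.5, with activin 1061 bp away. In the gene itself, the region at 6276431 to 6276530 scored 8.92 and 7.83 and had the most distant activin summit of the 9, at 1818 bp. The others started at 6207424, 6337734, 6288838, 6292641 and 6284331, with the nearest activin summit at 214 to 1302 bp.

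The 3 regions of the activin libraries alone were weak in at least 1 list. The region at 6244389 to 6244400 scored 4.87 and 5.34 and lay 521 bp from the strongest region of the locus, where both palbociclib libraries had their summit. The region at 6279898 to 6279976 scored 3.84 and 22.7, and that at 6223414 to 6223496 scored 12.4 and 3.25. Their nearest palbociclib summits lay 519 and 1102 bp away. A lack of a listed summit is not a lack of SMAD2, since a list holds only positions past the threshold of the peak caller.

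Many positions had no partner in another library, at the locus much as over all regions. A region in a single library was the most frequent class, with 62 of 118, or 52.5%, beside 50.8% of all regions. Of these, 12 and 7 came from activin replicates 1 and 2, and 19 and 24 from palbociclib replicates 1 and 2. Of the 45 summits of activin replicate 1, 22 had a summit of activin replicate 2 within 200 bp, or 48.9%, against 58.0% of its whole list. Of the 63 summits of palbociclib replicate 1, 28 had one of palbociclib replicate 2 within that distance, or 44.4%, against 58.2% of its list. In each of the 12 ordered pairs of libraries the share in the window was below that of the list. Window and list were not matched on score. Of the window summits, 37.8% and 43.5% with activin and 46.0% and 52.4% with palbociclib scored above their list median. The part of score in these shares was not tested. Neighbouring summits of a library lay a median of 1043 to 1227 bp apart here.

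In the stretch past the strongest region, partners between the palbociclib libraries were counted at 2 distances. Of the 28 summits of palbociclib replicate 1, 10 had a summit of replicate 2 within 200 bp and 23 within 1000 bp. Within 1000 bp of a summit of activin replicates 1 and 2 lay 12 and 12 of them. Of the 26 of palbociclib replicate 2, 9 had one of replicate 1 within 200 bp and 18 within 1000 bp, and 7 and 9 had one of activin replicates 1 and 2 within 1000 bp. The longer lists offer more positions to match, so no order is read from these counts. Of the 49 regions in the stretch, 7 (14.3%) had a summit in each palbociclib library and none with activin alone, beside 5.29% of all regions. The reverse class held 1 (2.04%), beside 2.22%. A summit in all 4 libraries was found in 1 (2.04%), beside 20.4%. The stretch was set after the positions were seen, so these shares only describe it.

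Both window edges fell in stretches without summits. The first summit inside the window lay 9842 to 9936 bp past its start, and the last outside it lay 18208 to 18513 bp before the start in 3 libraries and 130273 bp before it in activin replicate 2. At the other edge, the last summit inside lay 9918 to 9941 bp before the end. Outside, the nearest one lay 52495 and 55005 bp further with activin, and 7217 and 7095 bp further with palbociclib. The 200 kb before the window held 4 and 2 summits with activin and 7 and 5 with palbociclib. The 200 kb after it held 10 and 9, and 10 and 11. In RefSeq the nearest protein-coding genes are RBM17, a splicing factor gene, before PFKFB3, and PRKCQ, which encodes a protein kinase C, after it.

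A pair of other dense loci had lower-scoring leading summits. The densest 100-kb window of the genome, widened to 46350 to 46550 kb of chromosome 22, held 71 and 55 summits with activin and 66 and 71 with palbociclib. Its strongest summits scored 76.9 and 171 with activin and 218 and 143 with palbociclib, against 390, 368, 797 and 686 for PFKFB3 in the same lists. The 100-kb window where palbociclib counts exceeded activin counts by most, widened to 35050 to 35250 kb of chromosome 5, held 61 and 47 against 81 and 95. Its strongest summits scored 172 and 165, and 347 and 272. Palbociclib-only regions made up 4.26% of the regions at the chromosome 22 locus and 10.9% at the chromosome 5 locus, beside 7.63% at PFKFB3. At equal list lengths the ratio of palbociclib to activin counts was 0.877 at the former and 1.09 at the latter, beside 1.09 at PFKFB3. These loci were themselves picked on their counts, so the values are set side by side with no test.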

How the data were processed

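The tools named in the submitters' processing notes are Bowtie 1.1.0, MACS2 2.0.9 and Picard, and the build is hg19. The sources used here do not give read filters or duplicate handling. The deposited files list the peak summits of each of 4 libraries separately, with a score that the authors' peak caller gave and that was read as −log10 q, since the lowest values lie just above that of a q of 0.05. Positions are 1-based. Lists hold no read counts, so depth is unknown. Ties in score at a trimmed list end were taken in order of chromosome and position.

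Windows of 200 kb were laid on a grid aligned to the locus. Groups were compared by an exact two-sided permutation test. Named regions were up to 12 regions with a summit in all libraries by best worst rank, up to 10 group-specific regions per treatment, and the summits at the window edges. The locus, the region rule and the compared loci were chosen with earlier results of these data known. Promoter sequences are from RefSeq (GRCh38.p14), with 1 of 1 gene matched. The planned motif search at summits was not run, because it needs hg19 sequence, and was made on the 2 promoters instead, over 35116 promoters as background. Code was tested on simulated data. Python 3.11.15, numpy 2.4.6, pandas 2.3.3, scipy 1.17.1 and matplotlib 3.10.9 were used. Alternatives are given in the closing section.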

Additional observations from a re-analysis of the deposited data

How the results depend on the processing

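The 5-kb blocks, the 10-kb bins and the dividing point were chosen after seeing the data, with all alternatives for the dividing point. For the window count (log2 ratio 0.469), values were 0.122 at equal list lengths, 0.531 in the highest 10000 summits, 0.623 with a score of at least 5, 0.243 in the gene span only, and 0.454 to 0.485 without each library. Per 10000 listed (0.192), they were 0.122, 0.531 and 0.323 in the first 3. In the gene span only the value was −0.034, since there the counts rose less than the lists lengthened. This reversal of sign was close in size to the replicate SD of the window value (0.033). The gene share (−9.57 percentage points) kept its sign except in the highest 10000 summits, at 1.55, where each list has 4 to 7 summits. Without each library it was −11.95 to −7.19. Before the dividing point (−0.021), values were 0.042 with the point at 15 kb, 0.246 at the gene end, −0.230 at equal list lengths, 0.152 in the highest 20000 summits and 0.253 with a score of at least 5. After it (1.51), they were 1.24 with the point at 5 kb, 1.16 at the gene end, 0.922 at equal list lengths and 0 in the highest 20000 summits.

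Shared regions (14) numbered 8 at a gap of 100 bp, 9 in the gene span only and 3 in the highest 10000. Palbociclib-only regions (9) numbered 5 and 3 at gaps of 100 and 1000 bp, 2 in the gene span only, 0 in the highest 10000, and 11 to 33 without each library. Activin-only regions (3) numbered 0 at a gap of 1000 bp, 5 at equal list lengths, 0 in the highest 10000, 1 with a score of at least 5, and 6 to 15 without each library. Leaving out a library raises these counts by construction, to 33 and 28 palbociclib-only regions without palbociclib replicates 1 and 2, and to 12 and 15 activin-only regions without activin replicates 1 and 2. Region by region, same-numbered libraries did not deviate together (correlation of score deviations −0.033 over 23476 shared regions). Each library was first centred on its own median, which removes any shift of a whole library. The check therefore cannot decide whether the numbers pair the libraries. The median score of the whole list was 9.46 and 9.41 in activin and palbociclib replicates 1, and 8.34 and 8.39 in replicates 2. With the replicate block, taken as the mean over the 2 same-numbered pairs, the gene share differed by −9.57 points (exact sign-flip permutation p = 0.5). Regions shared by a pair then numbered 24, palbociclib-only regions 38.5 and activin-only regions 21.5. The causes of the other changes were not tested.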
